A study of Mus musculus with 6 samples.

Results

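The 4 mouse Hox clusters were examined in RNA-seq of primary motoneuron cultures, as the protein-coding genes whose symbol is Hox followed by a cluster letter (a to d) and a paralog number. The tables held 38 such genes among 39174 genes, with 11 genes of cluster a, 10 of cluster b, 9 of cluster c and 8 of cluster d; Hoxd4 was not analysed here. There were 3 libraries from Nmd-/- animals and 3 from Nmd+/+ animals, all of strain CD-1 and without further treatment in the labels. Nmd stands for neuromuscular degeneration and is a partial loss-of-function mutation in Ighmbp2, which encodes a helicase; mutations in the human gene cause spinal muscular atrophy with respiratory distress. The cultures followed a published protocol for embryonic spinal motoneurons, and the animals' age was not given in the sources used here. In such bulk cultures, fewer cells of a type and less RNA per cell cannot be told apart.

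Hox genes encode homeodomain transcription factors that give cells their position along the body axis. They lie in clusters, and the order of the genes along a cluster follows the order of their expression domains from head to tail: low paralog numbers act in the hindbrain and neck, middle numbers at forelimb and trunk levels, and high numbers at hindlimb, tail and distal limb levels. In spinal motoneurons, Hox6 and Hox8 proteins act at the level of the forelimb, Hoxc9 at the thoracic level and Hox10 proteins at the level of the hindlimb. Hox proteins bind DNA together with Pbx and Meis cofactors, and Polycomb complexes keep unused Hox genes silent.

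The unit was FPKM, fragments scaled by transcript length and by the library's total, so levels can be set side by side between genes. In the 6 libraries, 14474 to 14645 genes reached 1 FPKM, and the summed FPKM was 664628 to 693258. Ighmbp2 itself had 0.876, 0.788 and 0.598 FPKM in the Nmd-/- libraries, against 1.44, 1.303 and 1.09 FPKM in the Nmd+/+ libraries, so that the genotypes did not overlap (exact permutation test, two-sided, p = 0.1, the smallest that 3 against 3 allows). Defining motoneuron markers were near 0: Chat, which makes acetylcholine, reached at most 0.0692 FPKM, and the motoneuron homeobox gene Mnx1 was listed at 0 in all 3 Nmd-/- libraries and reached at most 0.0247 FPKM in Nmd+/+ libraries. Of 9 motoneuron markers 8 were in the tables and 1, Isl1, had a mean of at least 1 FPKM; their summed level was 1.74 to 3.03 FPKM in Nmd-/- and 2.27 to 3.24 FPKM in Nmd+/+ libraries. Markers of other spinal neurons summed to 124 to 232 FPKM in Nmd-/- and 116 to 243 FPKM in Nmd+/+ libraries, and those of radial glia and astrocytes to 4004 to 4979 FPKM in Nmd-/- and 3142 to 4339 FPKM in Nmd+/+ libraries. Most of the latter sum was the single gene Vim, at 3420 to 4452 FPKM in Nmd-/- and 2380 to 3645 FPKM in Nmd+/+ libraries. The Hox levels below are those of the whole cultures, and the defining markers of the labelled cell type were nearly absent from them.

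Hox transcripts made up 0.157, 0.128 and 0.144% of the summed FPKM in Nmd-/- libraries 1, 2 and 3, against 0.158, 0.119 and 0.150% in Nmd+/+ libraries 1, 2 and 3. Levels were highest at the trunk groups 8 and 9 and low beyond group 10. Summed over the genes of a group, the mean of the 6 libraries was 24.6 FPKM for group 2, 33.4 for group 3, 16.01 for group 4, 66.4 for group 5, 79.4 for group 6 and 81.3 for group 7. It was 371 FPKM for group 8, 218 for group 9 and 72.2 for group 10, against 3.16 for group 11, 0 for group 12 and 0.101 for group 13. The group 4 sum did not include Hoxd4, so it is not that of the whole group. Group 8 stood above every other group without overlap, at 312 to 405 FPKM over the libraries, followed by group 9 at 185 to 248 FPKM. The drop from group 10 to group 11 lay between the 51.3 FPKM of the lowest group 10 sum and the 10.2 FPKM of the highest group 11 sum.

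**Figure D1:**
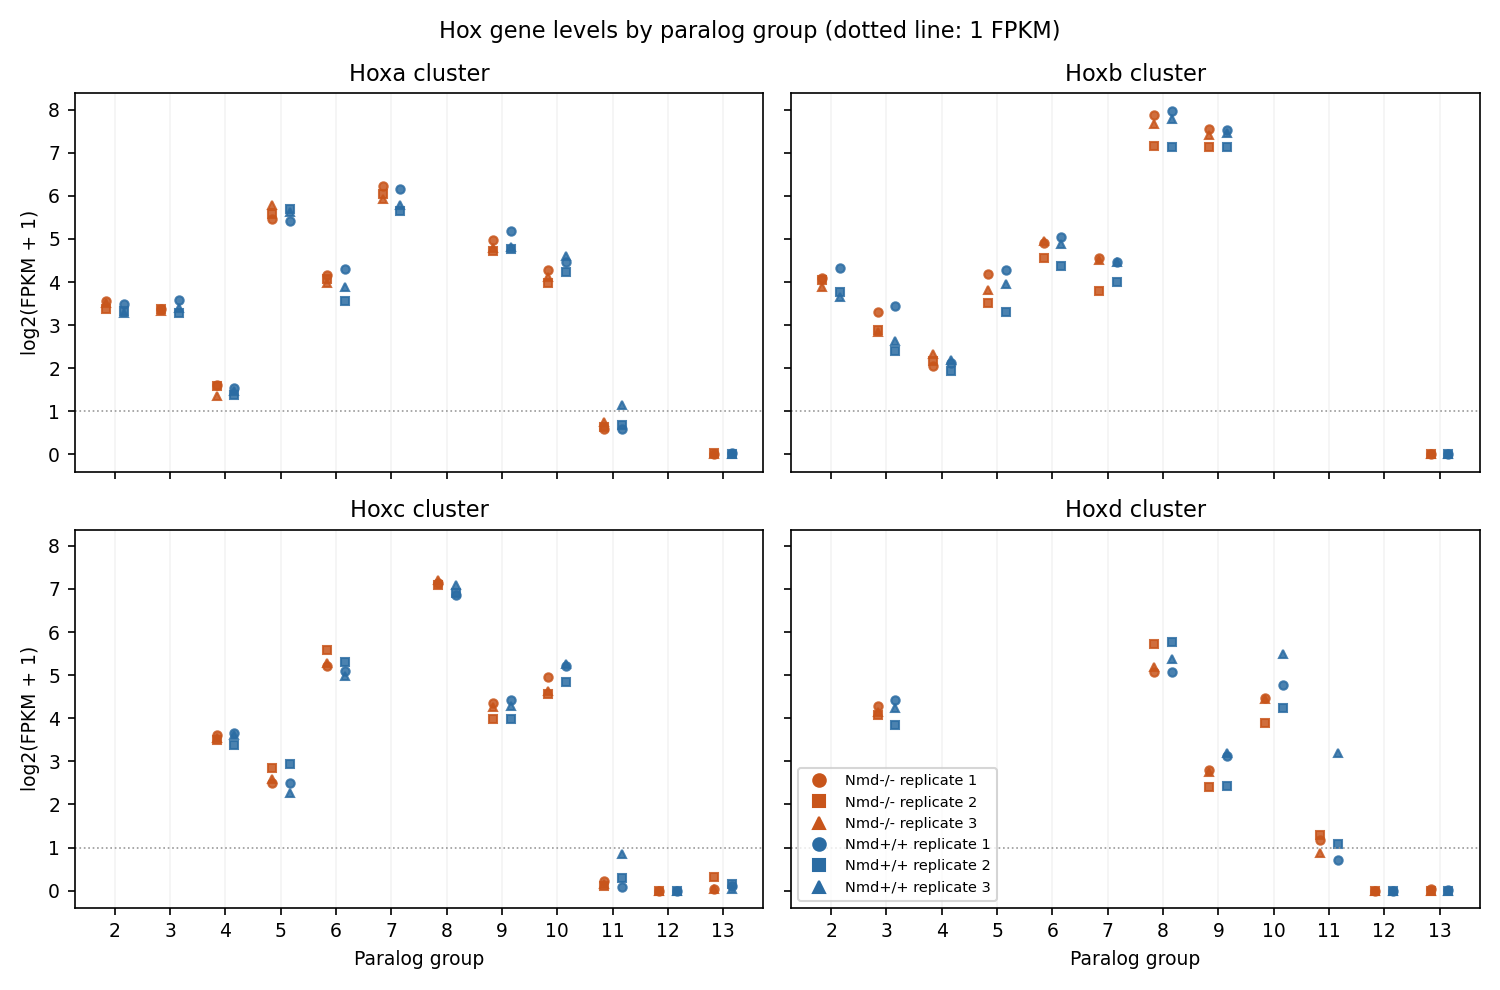
Levels of Hox genes of paralog groups 2 to 13 as log2(FPKM + 1) against paralog group, 1 panel per cluster, with Nmd-/- libraries (orange) left of Nmd+/+ libraries (blue) and a marker shape for each replicate number. Levels peak at group 8 in every library in clusters b and c, reaching 251 FPKM for Hoxb8, and in cluster d in all but Nmd+/+ replicate 3, where Hoxd10 is higher at 43.6 FPKM, and lie near 0 at groups 12 and 13.

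Of the 38 genes 3, namely Hoxb8, Hoxb9 and Hoxc8, had a mean of at least 100 FPKM. They held 53.4, 48.0 and 53.0% of the summed Hox FPKM in Nmd-/- libraries 1, 2 and 3, against 52.0, 48.1 and 51.7% in Nmd+/+ libraries 1, 2 and 3. Hoxb8 (chr11:96281905-96285325), which in mice is needed in dorsal spinal cord and in microglial precursors for normal grooming, had 233, 143 and 203 FPKM in Nmd-/- libraries, against 251, 139 and 220 FPKM in Nmd+/+ libraries. Hoxb9 (chr11:96271457-96276595), a thoracic Hox gene, had 186, 140 and 169 FPKM in Nmd-/- libraries, against 185, 139 and 175 FPKM in Nmd+/+ libraries. Both genes covered overlapping ranges in the 2 genotypes and were low in the libraries numbered 2. Hoxb8 exceeded Hoxb9, and Hoxb9 exceeded Hoxc8, in each of the 6 libraries, although their ranges over libraries overlapped. Among the 28 genes with a mean of at least 1 FPKM, 26 of the 27 neighbours in the order of mean level had overlapping ranges. The exception was the step below Hoxc8, at 116 to 147 FPKM, to Hoxa7, at 49.6 to 74.4 FPKM.

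The promoter stretches of 4 genes are shown: Hoxb8 and Hoxd8, the genes with the highest mean in clusters b and d, which share a paralog group but moved opposite ways between replicate numbers, and Hoxa10 and Hoxd10, of the group with the lowest median genotype estimate among groups 1 to 10. They are the 250 bases before the RefSeq start in GRCm38.p6, given 5′ to 3′ on the gene's strand, and none overlaps an annotated exon, though that of Hoxd10 lies within the locus the tables give for the gene; 21 of the 38 genes had an entry. Capitals mark matches on either strand of the Cdx site TTTATG, the TATA box TATAAA, the CCAAT box CCAAT and the Hox-Pbx site TGATNNAT.
Hoxb8 (chr11:96281655-96281904, plus strand): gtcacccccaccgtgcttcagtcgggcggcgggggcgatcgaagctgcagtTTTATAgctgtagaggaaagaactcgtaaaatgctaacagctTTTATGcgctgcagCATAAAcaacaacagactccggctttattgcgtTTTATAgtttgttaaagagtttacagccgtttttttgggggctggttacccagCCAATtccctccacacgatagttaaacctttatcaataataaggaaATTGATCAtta
Hoxd8 (chr2:74704365-74704614, plus strand): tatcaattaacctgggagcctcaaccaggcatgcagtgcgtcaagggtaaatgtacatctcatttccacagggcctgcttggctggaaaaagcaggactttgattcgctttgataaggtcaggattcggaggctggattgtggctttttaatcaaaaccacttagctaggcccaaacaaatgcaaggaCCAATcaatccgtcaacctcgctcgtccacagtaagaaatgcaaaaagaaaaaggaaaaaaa
Hoxa10 (chr6:52240855-52241104, minus strand): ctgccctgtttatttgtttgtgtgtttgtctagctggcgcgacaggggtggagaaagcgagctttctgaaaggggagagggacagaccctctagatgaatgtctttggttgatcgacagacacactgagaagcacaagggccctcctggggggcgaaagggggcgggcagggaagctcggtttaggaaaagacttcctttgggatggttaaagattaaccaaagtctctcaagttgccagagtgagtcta
Hoxd10 (chr2:74691641-74691890, plus strand): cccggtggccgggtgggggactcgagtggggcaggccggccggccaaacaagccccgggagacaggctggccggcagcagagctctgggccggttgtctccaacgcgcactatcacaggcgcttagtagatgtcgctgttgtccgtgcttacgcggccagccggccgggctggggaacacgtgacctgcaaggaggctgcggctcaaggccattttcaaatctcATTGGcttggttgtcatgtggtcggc
The Hoxb8 stretch held 2 matches of TTTATG, 2 of TATAAA, 1 of CCAAT and 1 of TGATNNAT. Hoxd8 and Hoxd10 held 1 CCAAT each and no other match, and Hoxa10 held none of the 4 motifs. Of 32851 promoters of the same length, 10.8% held TTTATG, 12.4% TATAAA, 33.8% CCAAT and 7.68% TGATNNAT. The GC content was 44.4% for Hoxb8 and for Hoxd8, 51.6% for Hoxa10 and 65.6% for Hoxd10, against a median of 52.4% over all promoters.

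In the paralog groups 1 to 3, which pattern the hindbrain and pharyngeal arches, 6 of 8 genes had a mean of at least 1 FPKM. Hoxb2 ranged over 11.5 to 19.2 FPKM, Hoxd3 over 13.4 to 20.4, Hoxa2 over 8.70 to 10.8, Hoxa3 over 8.70 to 10.97 and Hoxb3 over 4.31 to 9.81 FPKM. Hoxb1, which specifies facial motoneurons in the hindbrain, reached at most 0.0293 FPKM and Hoxd1 at most 0.0867 FPKM. In groups 4 and 5, Hoxa5, which is needed for phrenic motoneurons, was the highest at 41.7 to 53.9 FPKM, ahead of Hoxb5 at 8.89 to 18.3, Hoxc4 at 9.47 to 11.7, Hoxc5 at 3.79 to 6.70, Hoxb4 at 2.86 to 4.06 and Hoxa4 at 1.56 to 2.04 FPKM.

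In groups 6 to 8 all 8 genes exceeded 10 FPKM in every library. Besides Hoxb8, Hoxc8 and Hoxa7 these were Hoxd8 at 32.6 to 53.6 FPKM, Hoxc6 at 30.6 to 47.3, Hoxb6 at 19.7 to 31.9, Hoxb7 at 12.9 to 22.7 and Hoxa6 at 10.9 to 18.7 FPKM. The paralogs of a group differed widely in level: in group 8, Hoxb8 was 7.13, 2.74 and 5.71 times Hoxd8 in Nmd-/- libraries 1, 2 and 3, against 7.65, 2.60 and 5.48 times in Nmd+/+ libraries 1, 2 and 3. In group 9, Hoxb9 at 139 to 186 FPKM stood above Hoxa9 at 25.4 to 35.2, Hoxc9 at 14.8 to 20.4 and Hoxd9 at 4.33 to 8.09 FPKM. The cluster sums followed from this, since cluster b held 40.7 to 49.4% of the summed Hox FPKM in Nmd-/- and 41.5 to 50.8% in Nmd+/+ libraries.

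Caudal to group 10, levels were low or 0. Hoxd11, which acts in the forearm and at sacral levels, had 1.25, 1.43 and 0.833 FPKM in Nmd-/- libraries, against 0.626, 1.12 and 8.16 FPKM in Nmd+/+ libraries. Its log2 difference was -0.55 with an SE of 0.59, and 0.21 without Nmd+/+ replicate 3. That library stood apart here, with a 95% Cufflinks interval of 7.05 to 9.27 FPKM, and it also had the highest Hoxa11 and Hoxc11 levels, at 1.20 and 0.810 FPKM. In the other 5 libraries Hoxa11 lay between 0.508 and 0.684 FPKM and Hoxc11 between 0.0653 and 0.233 FPKM. Hoxb13, Hoxc12 and Hoxd12 were listed at 0 in every library, Hoxa13 and Hoxd13, which shape the digits, reached at most 0.0266 and 0.0224 FPKM, and Hoxc13, a hair follicle gene, reached 0.249 FPKM.

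Whether Hox levels differed between the genotypes was tested with limma on log2(FPKM + 1) over the 14611 genes with a mean of at least 1 FPKM, 28 of them Hox genes. No Hox gene passed an adjusted p of 0.05, and the limma adjusted p was 0.9997 for each of the 28. No gene of the whole table passed either (0%), and at an unadjusted p below 0.05 there were 0 Hox genes against 65 of all genes (0.445%). With the replicate number as a block, no gene passed either, and 4 Hox genes (Hoxa10, Hoxc10, Hoxd10 and Hoxc6) against 711 of all genes (4.87%) had an unadjusted p below 0.05. The Hox differences divided evenly, with 14 genes higher and 14 lower in Nmd-/- than in Nmd+/+ libraries, where 56% of all genes tested were higher, and their median was 0.0007 on the log2 scale, against 0.02 over all genes tested. The median standard error was 0.17 on the log2 scale for Hox genes and for all genes. With the replicate block it was 0.11 for Hox genes and 0.12 for all genes. The SE and intervals given below are without the block unless stated.

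Along the paralog groups, the estimates differed in sign. In groups 1 to 5, 9 of 12 tested genes had a positive estimate (higher in Nmd-/-), against 56% of all genes tested. In groups 6 to 8 it was 5 of 8, in group 9 it was 0 of 4 and in group 10 it was 0 of 3. Without both libraries numbered 2 it was 6 of 12 in groups 1 to 5 and 4 of 8 in groups 6 to 8. Groups 9 and 10 then stayed at 0 of 4 and 0 of 3. None of these single differences passed the test. Within replicate numbers, 6 of the 28 Hox genes (21.4%) were lower in Nmd-/- in all 3 pairs, against 10.6% of all genes tested, and 4 (14.3%) were higher in all 3 pairs, against 14.9% of all genes. The 6 were Hoxa10, Hoxc10, Hoxd10, Hoxa9, Hoxd9 and Hoxd8, and the 4 were Hoxa2, Hoxa7, Hoxc6 and Hoxc8.

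The Hox10 genes, which specify hindlimb-level motoneurons and the lumbar and sacral skeleton, had the 3 smallest unadjusted p among lower Hox genes. Hoxc10 (ENSMUSG00000022484, chr15:102966796-102971893) had 30.1, 22.8 and 23.7 FPKM in Nmd-/- libraries, against 36.0, 27.8 and 37.1 FPKM in Nmd+/+ libraries. The genotypes overlapped, since Nmd-/- replicate 1 lay above Nmd+/+ replicate 2. The means were 25.5 ± 4.001 FPKM in Nmd-/- and 33.6 ± 5.05 FPKM in Nmd+/+ (SD, n = 3 each), a ratio of 0.759 and a log2 difference of -0.38 with an SE of 0.17 (95% interval -0.78 to 0.01, limma adjusted p = 0.9997). Hoxa10 (ENSMUSG00000000938, chr6:52231197-52240854) had 18.5, 14.7 and 16.4 FPKM in Nmd-/- libraries, against 20.97, 17.9 and 23.5 FPKM in Nmd+/+ libraries. Here too the ranges overlapped, at Nmd-/- replicate 1 and Nmd+/+ replicate 2. The log2 difference of Hoxa10 was -0.31 with an SE of 0.15 (95% interval -0.66 to 0.04).

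Hoxd10 (ENSMUSG00000050368, chr2:74691090-74695106) had 21.2, 13.8 and 20.7 FPKM in Nmd-/- libraries, against 26.3, 17.8 and 43.6 FPKM in Nmd+/+ libraries. Nmd+/+ replicate 3 was the highest library, the same one that stood apart in Hoxd11. The log2 difference was -0.56 with an SE of 0.32 (95% interval -1.31 to 0.19), and -0.24 without Nmd+/+ replicate 3. Within pairs 1, 2 and 3 the log2 differences were -0.30, -0.35 and -1.04 for Hoxd10, -0.25, -0.28 and -0.63 for Hoxc10 and -0.17, -0.27 and -0.49 for Hoxa10. Pair 3 gave the largest difference for each. With the replicate block, the limma adjusted p was 0.913 for Hoxd10, 0.944 for Hoxc10 and 0.990 for Hoxa10, with unadjusted p of 0.0032, 0.0070 and 0.018. The SE with the block was smaller, at 0.15 for Hoxd10, 0.11 for Hoxc10 and 0.11 for Hoxa10. The median of the group was -0.38 on the log2 scale and lay between -0.51 and -0.24 when single libraries were left out, with all 3 genes lower in Nmd-/- under each alternative run.

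**Figure D2:**
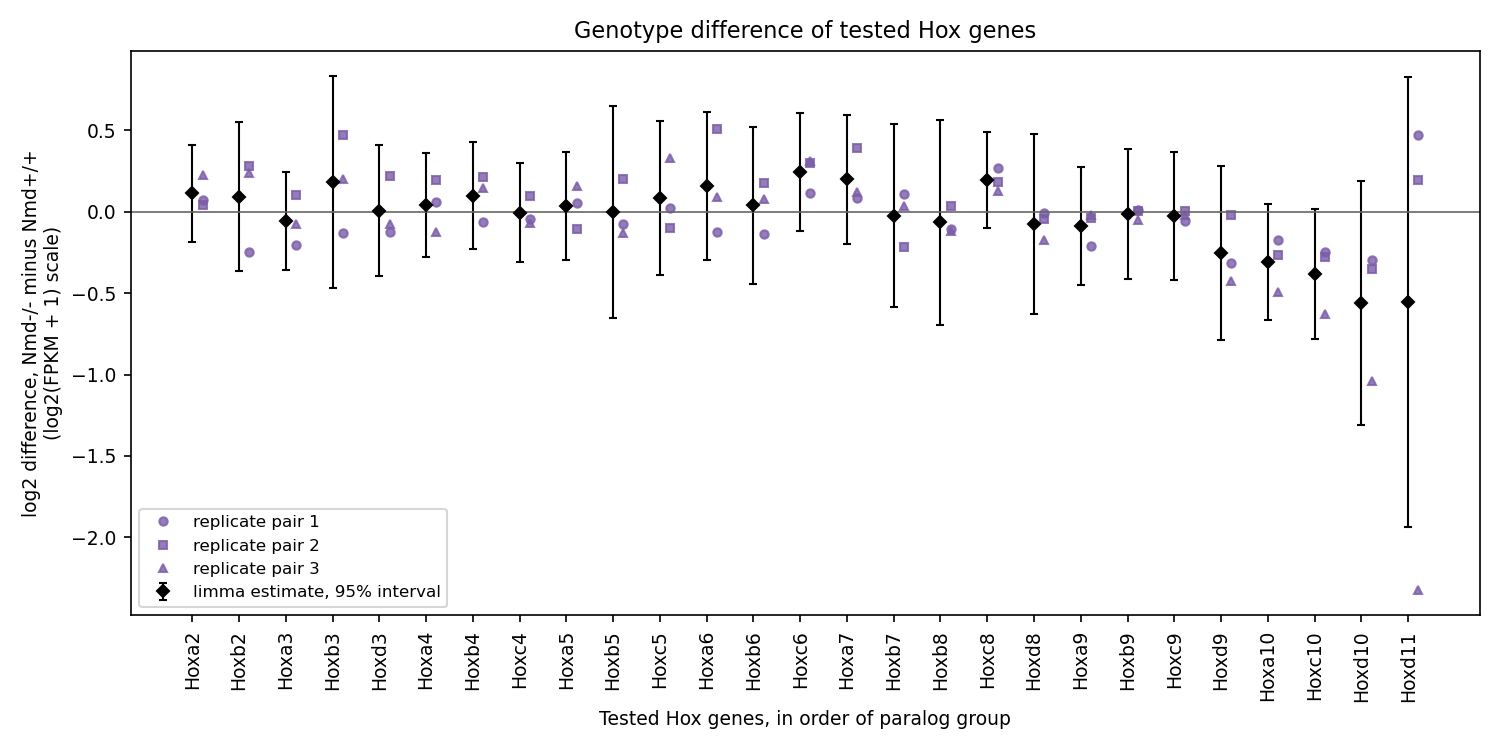
Log2 difference, Nmd-/- minus Nmd+/+, of 27 of the 28 tested Hox genes in order of paralog group on the log2(FPKM + 1) scale, with the limma estimate and its 95% interval (black) and the 3 within-number differences (purple). Every interval, from the fit without the replicate block, includes 0, and the 3 Hox10 genes lie lowest among groups 1 to 10 at -0.31 to -0.56.

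The 4 Hox9 genes, which act at the thoracic level, lay closer to 0. Hoxd9 (chr2:74697680-74700208) had 6.00, 4.33 and 5.75 FPKM in Nmd-/- libraries, against 7.71, 4.41 and 8.09 FPKM in Nmd+/+ libraries, with a log2 difference of -0.25 (SE 0.23). Hoxa9 (chr6:52223097-52231089) had 30.2, 25.4 and 26.9 FPKM in Nmd-/- libraries, against 35.2, 26.1 and 27.3 FPKM in Nmd+/+ libraries, with a log2 difference of -0.09 (SE 0.15). Both genes overlapped between genotypes, with Nmd+/+ replicate 1 the highest library for Hoxa9 and Nmd+/+ replicate 3 for Hoxd9. Hoxc9 (chr15:102976439-102985099), which in mouse motoneurons represses forelimb-level Hox genes, had 19.5, 14.9 and 18.3 FPKM in Nmd-/- libraries, against 20.4, 14.8 and 18.6 FPKM in Nmd+/+ libraries. Its log2 difference was -0.02, that of Hoxb9 was -0.01, and that of the trunk gene Hoxb8 was -0.07 (SE 0.27). The negative signs of group 9 did not hold when libraries were left out: 3 of the 4 were positive without Nmd+/+ replicate 1.

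The 3 smallest unadjusted p among genes that were higher in Nmd-/- belonged to Hoxc6, Hoxc8 and Hoxa7. Hoxc8 (ENSMUSG00000001657, chr15:102990622-102994267), which acts in motoneurons to forelimb muscles, had 140, 135 and 147 FPKM in Nmd-/- libraries, against 116, 119 and 134 FPKM in Nmd+/+ libraries. It was the 1 Hox gene of 28 (3.57%) whose libraries lay higher in Nmd-/- without overlap, against 1.76% of all genes tested, and there were 0 that lay lower, against 0.91%. Its means were 140 ± 6.07 FPKM in Nmd-/- and 123 ± 9.97 FPKM in Nmd+/+ (SD, n = 3 each), a log2 difference of 0.19 with an SE of 0.13 (95% interval -0.10 to 0.49, limma adjusted p = 0.9997). Hoxc6 (chr15:102998257-103011881), which marks forelimb-level motor columns, had 36.3, 47.3 and 38.2 FPKM in Nmd-/- libraries, against 33.5, 38.3 and 30.6 FPKM in Nmd+/+ libraries, with a log2 difference of 0.24 (SE 0.15). Hoxa7 (chr6:52214491-52221854), a trunk gene, had 74.4, 65.3 and 59.4 FPKM in Nmd-/- libraries, against 70.1, 49.6 and 54.6 FPKM in Nmd+/+ libraries, with a log2 difference of 0.20 (SE 0.17). Both were higher in Nmd-/- within each pair, while their ranges overlapped between genotypes.

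The balance within the Hox transcripts was described as shares, which do not depend on a library's scale and for which no test was run. Groups 9 to 13 made up 30.0, 27.4 and 28.9% of the summed Hox FPKM in Nmd-/- libraries, against 31.4, 30.3 and 33.5% in Nmd+/+ libraries. The genotypes did not overlap, but the lowest Nmd+/+ library lay close to the highest Nmd-/- library; the means were 28.8 ± 1.301% in Nmd-/- and 31.7 ± 1.65% in Nmd+/+ (SD, n = 3 each). Group 10 alone made up 6.68, 5.91 and 6.23% in Nmd-/- libraries, against 7.85, 7.70 and 10.2% in Nmd+/+ libraries. Its sum was 0.289, 0.278 and 0.277 of the group 9 sum in Nmd-/- libraries, against 0.335, 0.344 and 0.455 in Nmd+/+ libraries. Neither of these measures overlapped between genotypes, and Nmd+/+ replicate 3 was the highest library in both. Related measures did overlap. The group 10 sum was 69.8, 51.3 and 60.8 FPKM in Nmd-/- libraries, against 83.3, 63.6 and 104 FPKM in Nmd+/+ libraries. The ratio of Hoxd10 to Hoxd9 was 3.53, 3.18 and 3.61 in Nmd-/- libraries, against 3.41, 4.05 and 5.397 in Nmd+/+ libraries. The mean paralog number, weighted by FPKM, was 7.53, 7.39 and 7.49 in Nmd-/- libraries, against 7.54, 7.499 and 7.696 in Nmd+/+ libraries. Groups 4 to 8 made up 63.8, 65.9 and 65.2% in Nmd-/- libraries, against 61.9, 63.7 and 61.2% in Nmd+/+ libraries, and the genotypes came close without overlapping. Groups 1 to 3 held 5.89 to 6.72% in Nmd-/- and 5.27 to 6.76% in Nmd+/+ libraries, which overlapped. The share of groups 4 to 8 is thus largely the complement of that of groups 9 to 13. The group 10 share and ratio restate the low group 10 estimates of the same libraries and are not separate support.

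**Figure D3:**
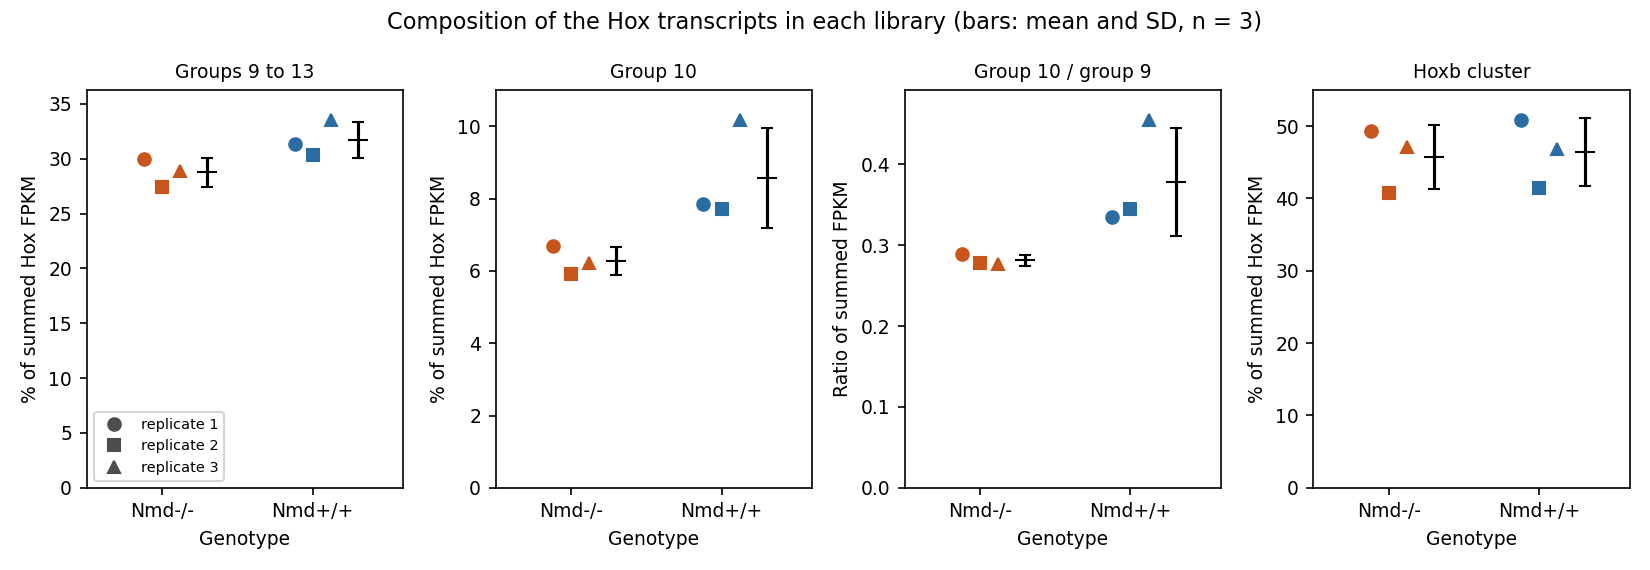
Share of groups 9 to 13, share of group 10, ratio of group 10 to group 9 and share of cluster b in the summed Hox FPKM of each library, Nmd-/- left of Nmd+/+, with mean and SD (n = 3) beside the points. Group 10 shares are 5.91 to 6.68% in Nmd-/- and 7.70 to 10.2% in Nmd+/+ libraries, while the cluster b shares overlap.

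Markers of hindbrain and more rostral brain, of which 1 of 12 was tested, summed to 1.95 to 2.996 FPKM in Nmd-/- and 3.11 to 3.92 FPKM in Nmd+/+ libraries, a non-overlapping difference that went the same way as group 10; the forebrain genes Emx1, Otx2 and Six3 were at or near 0. Limb and lateral plate mesenchyme markers summed to 5.49 to 8.62 FPKM in Nmd-/- and 5.62 to 9.59 FPKM in Nmd+/+ libraries, 2 of 5 tested, with Pitx1, Tbx4 and Tbx5 at or near 0. Sensory and neural crest markers, 3 of 7 tested, summed to 10.7 to 16.7 FPKM in Nmd-/- and 15.8 to 18.1 FPKM in Nmd+/+ libraries. The part of these cells in the Hox differences was not tested.

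More Hox genes passed a test of the replicate number than of genotype. In a limma F test of the replicate number with genotype as a covariate, 8 of the 28 tested Hox genes (28.6%) passed an adjusted p of 0.05, as did 4173 of the 14611 genes (28.6%), so the Hox share was that of all genes. Of the 8, 5 were genes of cluster b (Hoxb3, Hoxb5, Hoxb6, Hoxb7 and Hoxb8) and 3 of cluster d (Hoxd8, Hoxd9 and Hoxd10), with none of clusters a and c. The 6 with the smallest p were Hoxb8 (limma F adjusted p = 0.0049), Hoxb5 (0.0067), Hoxd8 (0.0098), Hoxb7 (0.013), Hoxd10 (0.014) and Hoxb3 (0.015).

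Hoxb8 was 143 FPKM in Nmd-/- replicate 2 and 139 in Nmd+/+ replicate 2, against 203 to 251 FPKM in the other 4 libraries. Hoxb5, a gene of neck and forelimb levels, had 17.3, 10.3 and 13.1 FPKM in Nmd-/- libraries, against 18.3, 8.89 and 14.5 FPKM in Nmd+/+ libraries. Hoxb7, a trunk gene, had 22.7, 12.9 and 21.7 FPKM in Nmd-/- libraries, against 20.99, 15.1 and 21.2 FPKM in Nmd+/+ libraries. In these 3 genes both libraries numbered 2 lay below the other 4. Hoxb3, which acts in the hindbrain, had 8.88, 6.34 and 6.17 FPKM in Nmd-/- libraries, against 9.81, 4.31 and 5.22 FPKM in Nmd+/+ libraries, so that it was the libraries numbered 1 that stood high. Hoxd8, a trunk gene of cluster d, had 32.6, 52.0 and 35.5 FPKM in Nmd-/- libraries, against 32.8, 53.6 and 40.2 FPKM in Nmd+/+ libraries. Hoxd8 ran the other way from Hoxb8, with both libraries numbered 2 above the other 4, and the only motif the stretches of both genes held was CCAAT. Among the 28 genes, both libraries numbered 2 lay below the other 4 for 11 genes (39.3%, against 18.8% of all genes) and above them for 4 (14.3%, against 20.6%). The 11 were Hoxb5, Hoxb6, Hoxb7, Hoxb8, Hoxb9, Hoxa9, Hoxc4, Hoxc9, Hoxd3, Hoxd9 and Hoxd10, and the 4 included Hoxc5, Hoxc6 and Hoxd8. Both libraries numbered 1 lay above the other 4 for 10 genes (35.7%, against 25.9% of all genes) and below them for 2, Hoxa5 and Hoxd8 (7.14%, against 17.7%). Those numbered 3 lay above the other 4 for 1 gene, Hoxb4 (3.57%, against 4.18%), and below them for 0 (against 10.8%).

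**Figure D4:**
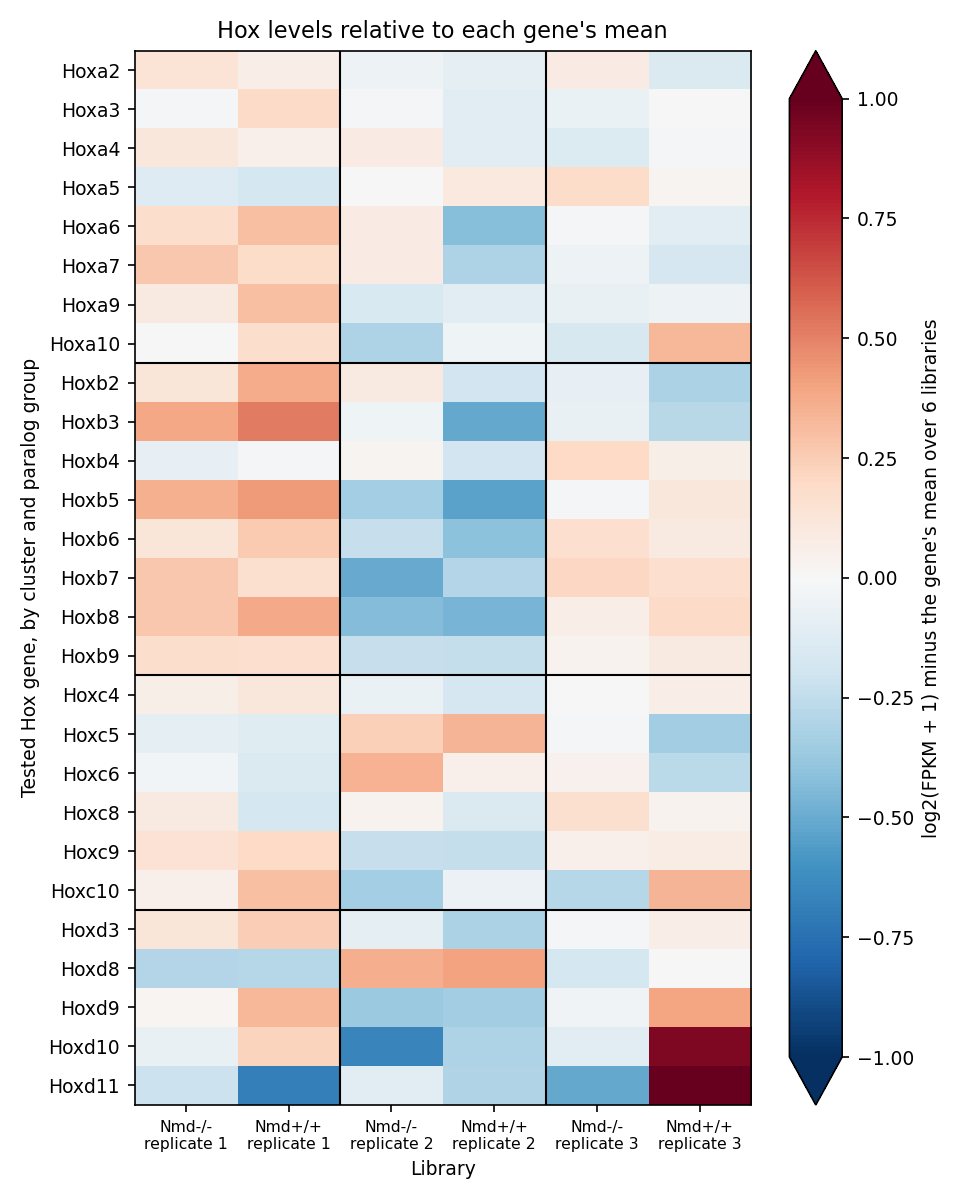
Heat map of log2(FPKM + 1) minus each gene's mean over 6 libraries for 27 of the 28 tested Hox genes, grouped by cluster, with the Nmd-/- library left of the Nmd+/+ library of each replicate number. Hoxb5 to Hoxb9 are low (blue) in both libraries numbered 2, where Hoxd8 is high (red), and Hoxd10 and Hoxd11 are high in Nmd+/+ replicate 3.

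Fibroblast and meningeal markers moved with the replicate number. Their sum was 5.55, 181 and 5.42 FPKM in Nmd-/- libraries 1, 2 and 3, against 4.60, 148 and 4.82 FPKM in Nmd+/+ libraries 1, 2 and 3, with all 9 of 9 markers tested and called by the same F test. Col1a1, a fibrillar collagen gene of fibroblasts, had 1.36, 51.1 and 1.19 FPKM in Nmd-/- libraries, against 0.713, 38.3 and 0.487 FPKM in Nmd+/+ libraries. Markers of other spinal neurons went the other way, at 124 FPKM in Nmd-/- and 116 FPKM in Nmd+/+ replicate 2, against 171 to 243 FPKM in the other 4 libraries. The part of these cells in the Hox levels was not tested. Without both libraries numbered 2, Hoxb3 and Hoxb5 still passed the F test, whereas the adjusted p was 0.21 for Hoxb8, 0.88 for Hoxb7, 0.20 for Hoxd8 and 0.13 for Hoxd10.

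Genes that act with or upstream of Hox genes were described from 4 lists. All 9 TALE cofactors were tested, 4 higher and 5 lower in Nmd-/-, with a median log2 difference of -0.02 and no call. The cofactor Meis2 was the highest, at 261, 187 and 184 FPKM in Nmd-/- libraries, against 273, 171 and 204 FPKM in Nmd+/+ libraries, and Pbx4 had the smallest unadjusted p of the list (log2 difference 0.31, SE 0.25). By replicate number 5 of the 9 passed, among them Meis2, Meis3, Pbx3 and Pknox2, against 28.6% of all genes tested. Polycomb and trithorax genes keep Hox genes off or on, and the list of 31 also held Ctcf and Gmnn. Of the 31, 23 had a positive and 8 a negative estimate, against 56% of all genes tested with a positive one. The median was 0.06, with no call. The highest was Pcgf2, a Polycomb subunit, at 57.4, 51.0 and 40.1 FPKM in Nmd-/- libraries, against 60.7, 39.02 and 39.8 FPKM in Nmd+/+ libraries. Cbx6, another subunit, had 22.0, 28.1 and 19.8 FPKM in Nmd-/- libraries, against 17.3, 11.6 and 17.4 FPKM in Nmd+/+ libraries. Its ranges did not overlap, as for 1.76% of all genes tested in that direction. The log2 difference of Cbx6, 0.57 (SE 0.20), had an unadjusted p of 0.025 and a limma adjusted p of 0.9997.

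Of 13 trunk activators and retinoid genes 7 were tested, 4 higher and 3 lower in Nmd-/-, with a median of 0.01. Cdx1, Cdx2 and Cdx4, which switch on trunk Hox genes in the early embryo, were at or near 0 in all 6 libraries. The retinoic acid receptor gene Rarb was the highest, at 6.14, 6.54 and 6.89 FPKM in Nmd-/- libraries, against 5.94, 6.80 and 7.46 FPKM in Nmd+/+ libraries, and Cyp26b1, which breaks down retinoic acid, had the smallest unadjusted p (log2 difference -0.31, SE 0.24). Of 7 genes that motoneurons use in a segment-specific way, 6 were tested, 4 higher and 2 lower in Nmd-/-, with a median of 0.11. Defining motoneuron markers were nearly absent from these cultures, and Lhx1 of this list was also a marker of other spinal neurons. Aldh1a2 was in the trunk activator list too, and was highest in Nmd-/- replicate 2 (3.19 FPKM) and Nmd+/+ replicate 2 (3.16 FPKM). Foxp1, a Hox cofactor of limb-level motoneurons, was the highest at 34.2, 41.0 and 32.2 FPKM in Nmd-/- libraries, against 40.9, 39.4 and 33.4 FPKM in Nmd+/+ libraries, and Pou3f1 had the smallest unadjusted p (log2 difference -0.26, SE 0.22). Over the 59 genes of these lists, 52 were tested and 17 (32.7%) passed by replicate number, against 28.6% of all genes, while none passed by genotype, with 1 at an unadjusted p below 0.05.

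Neighbouring and antisense genes limit some values, because the use of strand in quantification is not given in the sources used here. Hoxb3 shares 2250 of its 4251 annotated exon bases with the antisense gene Hoxb3os, Hoxb2 shares 953 with it, Hoxb5 shares 100 with Hoxb5os and Hoxa7 shares 586 with Hoxaas3. Reads of such pairs may not have been told apart. On the same strand, Hoxd3 shares 2225 of its 4191 exon bases with Gm28230 and 388 with Hoxd4, Hoxc10 shares 166 bases with Hoxc5, Hoxd10 shares 104 and Hoxd11 shares 455 with the transcript Gm28309, and the loci of Hoxd10 and Hoxd11 overlap in the tables. The Cufflinks 95% intervals reached 1.57 to 10.7% of the value to either side for the 19 genes with a mean of at least 10 FPKM and up to 44.4% over all 28.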

How the data were processed

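RNA-seq of 3 Nmd-/- and 3 Nmd+/+ libraries was used. The authors deposited FPKM per gene with a 95% interval and a status, 1 table per library, in Cufflinks format per the file headers. Build GRCm38 and, among the tools, Cufflinks 2.2.1, SAMtools 1.3, cutadapt 1.8, Trim Galore 0.4.0 and FastQC 0.10.1 are named in the submitters' processing notes; an aligner version, annotation release and strand setting were not given in the sources used here. Total RNA and a Lexogen mRNA kit were used per the labels' protocols. Read depth is not in the tables, so the interval, which covers estimation error within a library, stands for the precision. Loci start from 0 in the files and are printed from 1. Exon overlaps come from GENCODE M21, and promoters from RefSeq.

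Genes with a mean of at least 1 FPKM and an accepted status in all 6 libraries were tested (14611; a failed status removed 28). Nmd-/- minus Nmd+/+ was tested with limma 3.58.1 in R 4.3.3 with an intensity trend on log2(FPKM + 1), genotype as the only term and no rescaling, and the replicate number with a moderated F test of 2 degrees of freedom. Tests are two-sided, with Benjamini-Hochberg adjustment over all genes tested and a threshold of 0.05. The added 1 FPKM understates differences of low genes on this scale. The fits were also run on simulated data with 200 changed genes and independent normal errors. Its outcome is not reported here, and it does not gauge how often differences are missed in these libraries.

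The labels do not tell whether replicates are separate cultures or animals; p-values then cover the spread among these libraries alone, possibly a technical one. After the genotype mean of each gene was taken off, the 2 libraries of a number correlated over genes at 0.82 (number 1), 0.70 (number 2) and 0.39 (number 3). Across numbers the correlation was 0.28 for Nmd-/- replicate 1 with Nmd+/+ replicate 3 and 0.11 for Nmd-/- replicate 3 with Nmd+/+ replicate 2. It was negative for the other cross pairs. By this the numbers pair the libraries, from the values and not from a label, but only weakly for number 3. Within-pair differences and the replicate block rest on this pairing.

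Every Hox gene with a mean of at least 1 FPKM was given by its range. Values in each library were given for the highest member of each cluster, Hox9 and Hox10 genes, the 3 smallest p in each direction and the 6 smallest called p by replicate number, and for the highest member of each regulator list. The member with the smallest genotype p of each regulator list was given by its log2 difference, and Cbx6 also by its values in each library. Results of a few genes are not reported here. The members and lists were chosen with earlier results of these data known. Values of Hoxd11, Hoxa11 and Hoxc11 in each library, and of single markers, were added after seeing them. Alternatives were quantile normalization, median-of-ratios scaling, no filter, a filter at a mean of 5 FPKM, a pseudocount of 0.1, the replicate block, and leaving out each library or both libraries numbered 2.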

Additional observations from a re-analysis of the deposited data

How the results depend on the processing

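No Hox gene and no other gene passed by genotype under any alternative run. The replicate block changed no call by genotype: 0 genes passed with it, as without it, and 711 genes against 65 had an unadjusted p below 0.05. The sign of the genotype difference held when single libraries were left out for 9 of the 28 Hox genes: Hoxa2, Hoxa7, Hoxa10, Hoxb4, Hoxc6, Hoxc8, Hoxc10, Hoxd9 and Hoxd10. For the other 19 it turned, among them with log2 differences of -0.13 to 0.023 for Hoxa3, -0.0024 to 0.12 for Hoxa4, -0.049 to 0.11 for Hoxa5, -0.017 to 0.35 for Hoxa6, -0.17 to 0.039 for Hoxa9, -0.043 to 0.30 for Hoxb2, -0.029 to 0.48 for Hoxb3, -0.27 to 0.21 for Hoxb5, -0.16 to 0.18 for Hoxb6, -0.17 to 0.22 for Hoxb7, -0.32 to 0.14 for Hoxb8, -0.14 to 0.099 for Hoxb9, -0.091 to 0.048 for Hoxc4, -0.069 to 0.27 for Hoxc5, -0.15 to 0.086 for Hoxc9, -0.15 to 0.13 for Hoxd3, -0.27 to 0.11 for Hoxd8 and -1.03 to 0.21 for Hoxd11. The median Hox difference then lay between -0.11 (without Nmd+/+ replicate 2) and 0.069. Hoxd3 was -0.017 under median-of-ratios scaling and -0.021 under quantile normalization. Without both libraries numbered 2, the differences were -0.030 for Hoxb6, -0.032 for Hoxa4, 0.073 for Hoxb7, -0.018 for Hoxa6, -0.0029 for Hoxb2 and -0.10 for Hoxd3, the opposite sign to that with all libraries, and the cause was not tested.

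By replicate number, 8 Hox genes, 17 cofactors and regulators and 4173 genes of all passed. With no filter on low values 0, 0 and 0 passed over 27711 genes, while 12, 17 and 6348 had an unadjusted p below 0.05; the cause was not tested. Leaving out 1 library gave 5 to 13 Hox genes, 6 to 30 cofactors and regulators and 2280 (without Nmd+/+ replicate 1) to 6470 genes (without Nmd-/- replicate 2). Without both libraries numbered 2, 4 Hox genes passed, namely Hoxa7, Hoxb2, Hoxb3 and Hoxb5. Over the 12 alternatives Hoxb5 passed in 11, Hoxb3, Hoxb7, Hoxb8 and Hoxd10 in 10, Hoxd8 in 9, Hoxd9 in 8 and Hoxb6 in 7. Levels below 1 FPKM, as of Hoxa11 and Hoxc11, were not tested, and 3 libraries per genotype limit the precision of all comparisons.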
